A study of Rattus norvegicus with 24 samples.

Results

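The genes described here are 35 genes of the cell cycle and of DNA replication, taken by gene symbol from a list of G1 cyclins and their kinase, replication and nucleotide supply genes, mitotic kinases and cyclins, and chromosome and spindle proteins. Of these 35, 33 had a row among the 32883 genes of the expression tables, and 31 passed the filter on low values and entered the tests. Ccnb2 and E2f1 are not analysed here. Bub1b and Cenpf fell below the filter, which asked for 0.5 FPKM or more in 2 or more libraries (FPKM, fragments per kilobase of transcript scaled to library size, is a level corrected for gene length). The filter read FPKM as deposited, and each of the 31 tested members reached 0.5 FPKM in at least 2 of the 6 DMSO libraries. Cenpe and Kif11 did so in just 2 of these 6, which belong to different experiments.

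The study treated primary striatal neurons from neonatal rats, in culture to day 7, and sequenced their total RNA after removal of ribosomal RNA. SKF is an agonist of the D1 dopamine receptor, JQ1 is an inhibitor of the bromodomains of the BET proteins, which read acetylated histones, iBD2 is a second bromodomain inhibitor, and DMSO is the vehicle. Experiment 1 held cultures given SKF plus JQ1, JQ1, SKF or DMSO for 60 min, experiment 2 held SKF plus iBD2, iBD2, SKF or DMSO for 60 min, and experiment 3 held SKF plus JQ1, JQ1, SKF or DMSO for 24 h. Each of the 12 groups had 2 libraries, except SKF plus iBD2 with 1 library analysed here, which makes 23 libraries, and the labels give no doses. Whether the 2 libraries of a group are separate cultures is not stated in the labels, and p-values therefore reflect a spread between libraries that may be technical. Time and experiment cannot be told apart, because every 24 h library belongs to experiment 3.

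A dividing cell passes through G1, in which D-type cyclins with Cdk4 or Cdk6 and E-type cyclins with Cdk2 drive entry into S phase, then copies its DNA with the Mcm helicase and the sliding clamp Pcna, and then divides under Cdk1, the Aurora kinases and the spindle checkpoint. Neurons have left the cycle for good, so in striatal cultures S phase and mitosis genes are usually taken to come from progenitors and glia, while D-type cyclins and Pcna are also made in cells that do not divide (Pcna serves in DNA repair). In bulk RNA, fewer cells of a type and less RNA per cell cannot be told apart.

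The cultures expressed the defining genes of striatal projection neurons, with 51.7 to 139 FPKM of Ppp1r1b and 62.6 to 87.0 FPKM of Bcl11b over the libraries. Over the libraries, summed marker levels ran from 137 to 518 normalised FPKM for astrocytes, 36.1 to 78.1 for the oligodendrocyte lineage, 1.98 to 85.6 for microglia and 0.0970 to 0.386 for endothelial cells, of whose markers none reached the tests. Experiment 2 was sequenced less deeply (4.36 to 7.20 gigabases aligned per library) than experiment 1 (7.23 to 11.4). Its range overlapped the low end of that of experiment 3 (6.48 to 14.9). Treatment markers moved as the labels name the treatments for JQ1 at both times and for SKF and iBD2 at 60 min. Hexim1, a gene that BET inhibitors raise, rose by 1.23 ± 0.09 on the log2 scale with JQ1 at 60 min and by 1.47 ± 0.09 at 24 h, and Nr4a2, an immediate early gene, rose by 2.98 ± 0.07 with SKF at 60 min (limma, adjusted p = 8.5e-08, 9.9e-10 and 2.7e-14). Hexim1 also rose by 0.52 ± 0.09 with iBD2 (adjusted p = 0.023). At 24 h Nr4a2 did not mark SKF, with a log2 change of 0.07 (limma, adjusted p = 0.92). It rose by 1.29 with JQ1 at 24 h (limma, adjusted p = 2.8e-08).

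In vehicle cultures the members ran from high to barely detected. In the DMSO libraries at 24 h, Pcna had 22.04 and 21.4 FPKM and stood at the 78.4th percentile of the genes tested. Ccnd2, a D-type cyclin, followed with 19.1 and 16.2 FPKM, and these did not overlap Pcna. Rrm1, the large subunit of ribonucleotide reductase, had 13.7 and 12.3 FPKM. Tyms, which makes thymidylate, had 11.4 and 10.2 FPKM and Ccnd1 had 8.69 and 8.64 FPKM. The helicase subunit Mcm6 stood at the 45.5th percentile. Mki67, the proliferation antigen, was at 0.650 and 0.717 FPKM and the spindle motor Kif11 at 0.491 and 0.441 FPKM, the 3.49th percentile. The lowest members rest on few reads, for example 14.6 to 122 estimated reads per library for Cdc20, against 1226 to 5221 for Pcna.

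The promoters below belong to members on which the JQ1 comparisons turn and that have an entry in RefSeq (rat build GRCr8), 5 members that were higher with JQ1 at 24 h and Mcm6, which was lower. Each sequence is the 250 bases before the gene's start, 5′ to 3′ on the gene's minus strand, in lower case with motif matches in capitals. The motifs searched on both strands were the E2F site TTTNNCGC, the CHR element TTTGAA, the CCAAT box CCAAT and the cAMP response core TGACGT.

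Pcna, chr3:139955821-139956070: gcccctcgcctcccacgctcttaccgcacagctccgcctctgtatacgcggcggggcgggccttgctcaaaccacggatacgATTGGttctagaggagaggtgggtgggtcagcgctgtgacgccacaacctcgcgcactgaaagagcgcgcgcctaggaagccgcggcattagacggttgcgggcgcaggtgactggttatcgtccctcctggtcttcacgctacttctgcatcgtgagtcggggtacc

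Ccnd3, chr9:20897876-20898125: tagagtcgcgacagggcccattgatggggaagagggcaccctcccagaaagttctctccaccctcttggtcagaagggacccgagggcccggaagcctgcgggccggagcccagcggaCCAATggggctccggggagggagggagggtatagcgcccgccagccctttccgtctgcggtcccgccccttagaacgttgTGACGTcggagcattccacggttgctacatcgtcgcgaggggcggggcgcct

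Mki67, chr1:199952594-199952843: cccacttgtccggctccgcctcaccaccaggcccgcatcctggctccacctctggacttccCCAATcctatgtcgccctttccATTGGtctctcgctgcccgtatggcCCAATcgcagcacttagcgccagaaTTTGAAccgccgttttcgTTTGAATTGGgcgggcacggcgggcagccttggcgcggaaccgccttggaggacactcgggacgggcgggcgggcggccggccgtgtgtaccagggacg

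Top2a, chr10:84473094-84473343: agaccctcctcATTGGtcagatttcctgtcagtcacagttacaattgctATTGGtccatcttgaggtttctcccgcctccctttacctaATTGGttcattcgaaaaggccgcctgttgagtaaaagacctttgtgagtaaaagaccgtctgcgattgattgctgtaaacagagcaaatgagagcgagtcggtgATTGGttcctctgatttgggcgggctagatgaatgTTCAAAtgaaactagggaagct

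Mcm7, chr12:22163179-22163428: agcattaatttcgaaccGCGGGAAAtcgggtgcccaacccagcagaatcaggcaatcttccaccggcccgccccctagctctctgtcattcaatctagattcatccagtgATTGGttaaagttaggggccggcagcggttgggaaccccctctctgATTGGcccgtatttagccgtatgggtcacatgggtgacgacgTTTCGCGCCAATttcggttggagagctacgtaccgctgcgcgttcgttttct

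Mcm6, chr13:42404353-42404602: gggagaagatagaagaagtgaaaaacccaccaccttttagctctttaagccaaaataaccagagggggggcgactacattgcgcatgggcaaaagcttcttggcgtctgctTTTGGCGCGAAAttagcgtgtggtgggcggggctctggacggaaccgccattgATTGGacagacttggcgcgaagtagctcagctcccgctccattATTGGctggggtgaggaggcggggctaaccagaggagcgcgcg

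Pcna held 1 CCAAT box and Ccnd3 held 1 CCAAT box and 1 TGACGT, 52 bases before the start. Mki67 held 2 CHR elements, of which the one 99 bases before the start overlaps a CCAAT box, and Top2a held 1 CHR element 22 bases before the start, each beside 4 CCAAT boxes. Mcm7, which was higher with JQ1, and Mcm6, which was lower, both held 2 E2F matches and both held CCAAT boxes, so these letters did not separate the direction of the 2 genes. In Mcm6 the E2F matches overlap, and in Mcm7 the nearer one overlaps a CCAAT box. Of the 25 members with an entry, 7 held the E2F letters, 7 the CHR letters, 19 a CCAAT box and 6 TGACGT. Among all 27457 promoters of the same length the shares were 4.35%, 16.0%, 34.3% and 7.25%. Of the 10 members with an entry that were higher with JQ1 at 24 h both without and with SKF, 2 held the E2F letters, 3 the CHR letters, 8 a CCAAT box and 2 TGACGT. Promoters of Aurkb, Ccna2, Ccne2, Ccnd1, Ccnd2, Mcm4, Tpx2, Ube2c, Rrm2 and E2f1 are not shown. A match describes letters and does not establish a binding site.

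JQ1 for 24 h was followed by higher RNA of most S phase and mitosis genes that changed, and by lower RNA of Ccnd1, Ccne2, Mcm6 and Rrm1. Against DMSO, 16 of 31 tested members were higher and 4 were lower (limma, adjusted p under 0.05 over all genes tested), where 28.1% of all genes tested were higher and 28.6% were lower. In cultures with SKF, JQ1 raised 18 and lowered 3 of the 31, against 27.7% and 28.7% of all genes. The median log2 change of the members was 0.23 without SKF and 0.29 with SKF, against 0.01 and 0.00 over all genes. These pairs use different reference libraries (DMSO and SKF), and 14 members were higher and 2 lower in both, with none called in opposite directions. Of the 13999 genes tested, 3277 were higher and 3392 lower in both, and again none was called in opposite directions. Calls were thus common among all genes here, and so were groups that did not overlap: both JQ1 libraries lay above both references for 38.8% of all genes and below them for 38.3% without SKF, and for 39.2% each way with SKF. All changes are on the scale of log2(normalised FPKM + 0.5), which understates the change of low genes.

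Among G1 cyclins and Cdk2, JQ1 at 24 h without SKF raised 3 of 6 and lowered 2, beside 28.1% and 28.6% of all genes. With SKF it raised Ccnd3 and Cdk2 and lowered Ccne1, where 27.7% of all genes were higher and 28.7% lower. The D-type cyclins moved apart. Ccnd3, a D-type cyclin on chromosome 9 (15404822 to 15410943 in Rnor_6.0, as for all genes), had 10.3 and 8.82 normalised FPKM in JQ1 libraries, against 6.05 and 5.89 in DMSO libraries. With SKF it had 11.0 and 11.9 in SKF plus JQ1 libraries, against 7.27 and 6.59 in SKF libraries. Each JQ1 library lay above each library without it, and Ccnd3 rose by 0.63 ± 0.08 and 0.68 ± 0.08 on the log2 scale (limma, adjusted p = 2.4e-06 and 9.4e-07). Ccnd1 on chromosome 1 (218090750 to 218100325) had 6.67 and 6.23 normalised FPKM in JQ1 libraries, against 8.69 and 8.64 in DMSO libraries. It had 8.41 and 7.48 in SKF plus JQ1 libraries, against 8.95 and 8.08 in SKF libraries. The groups did not overlap without SKF, where Ccnd1 fell by 0.40 ± 0.07 on the log2 scale (adjusted p = 0.00016), and overlapped with SKF, where the log2 change was -0.09 ± 0.07 (adjusted p = 0.28). The difference between these changes, 0.31 ± 0.10, did not pass (adjusted p = 0.68). Ccnd2 on chromosome 4 (159674885 to 159697207) had 19.8 and 20.0 normalised FPKM in JQ1 libraries, against 19.1 and 16.2 in DMSO libraries, a log2 change of 0.17 ± 0.07 that passed narrowly (adjusted p = 0.049). Without SKF, Ccnd2 lost this call on the deposited scale, at 0.08 (adjusted p = 0.47), and with experiment 3 fitted alone, at 0.16 (adjusted p = 0.092). It had 20.9 and 19.5 in SKF plus JQ1 libraries, against 18.5 and 17.4 in SKF libraries, with the same log2 change of 0.17 and an adjusted p of 0.057, which came under the threshold with limma voom (0.18, adjusted p = 0.045) and without DMSO replicate 5 or 6 (adjusted p = 0.029 and 0.028) or SKF replicate 6 of experiment 1 (adjusted p = 0.05). The JQ1 libraries lay above the others each time, but without DMSO replicate 6 the Ccnd2 change was 0.06 (adjusted p = 0.55), and it also lost its call under 17 other omissions of a library, with adjusted p up to 0.14.

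Cdk2, the kinase of the E-type cyclins (chromosome 7, 3124954 to 3132457), had 1.15 and 0.854 normalised FPKM in JQ1 libraries, against 0.589 and 0.631 in DMSO libraries. It had 1.22 and 1.03 in SKF plus JQ1 libraries, against 0.623 and 0.416 in SKF libraries. The groups did not overlap, and Cdk2 rose by 0.43 ± 0.12 without SKF and 0.68 ± 0.12 with SKF (adjusted p = 0.0066 and 0.00017), though without JQ1 replicate 5 the change was 0.29 (adjusted p = 0.11). The E-type cyclins, which activate Cdk2 at the start of S phase, went the other way. Ccne1 (chromosome 1, 94485832 to 94494980) had 2.54 and 2.67 normalised FPKM in JQ1 libraries, against 3.09 and 3.28 in DMSO libraries, and 2.04 and 2.85 in SKF plus JQ1 libraries, against 3.16 and 3.25 in SKF libraries. Ccne2 (chromosome 5, 24434872 to 24446406) had 1.52 and 1.31 in JQ1 libraries, against 1.74 and 1.92 in DMSO libraries, and 1.49 and 1.46 in SKF plus JQ1 libraries, against 1.79 and 1.59 in SKF libraries. All 4 JQ1 libraries lay below their references for both genes, but each passed in 1 comparison only. Ccne1 fell by 0.35 ± 0.11 with SKF (adjusted p = 0.012) and had a log2 change of -0.25 without SKF (adjusted p = 0.061). The value without SKF passed on the deposited scale, at -0.33 (adjusted p = 0.015), with limma voom, at -0.29 (adjusted p = 0.046), without SKF plus JQ1 replicate 5 or 6 (adjusted p = 0.022 in each) and without DMSO replicate 5 or 6 of experiment 1 (adjusted p = 0.05 in each). Ccne2 fell by 0.28 ± 0.09 without SKF (adjusted p = 0.016) and had a log2 change of -0.15 with SKF (adjusted p = 0.19). Single libraries decided these calls: Ccne1 was at -0.33 (adjusted p = 0.06) without SKF replicate 6 and at -0.15 (adjusted p = 0.27) without SKF plus JQ1 replicate 5. Ccne2 was at -0.23 (adjusted p = 0.12) without DMSO replicate 6 and at -0.20 (adjusted p = 0.15) without JQ1 replicate 6. Ccne2 overlaps Ints8 on the map, and its level is uncertain, because no source states whether strand was used in counting.

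**Figure D1:**
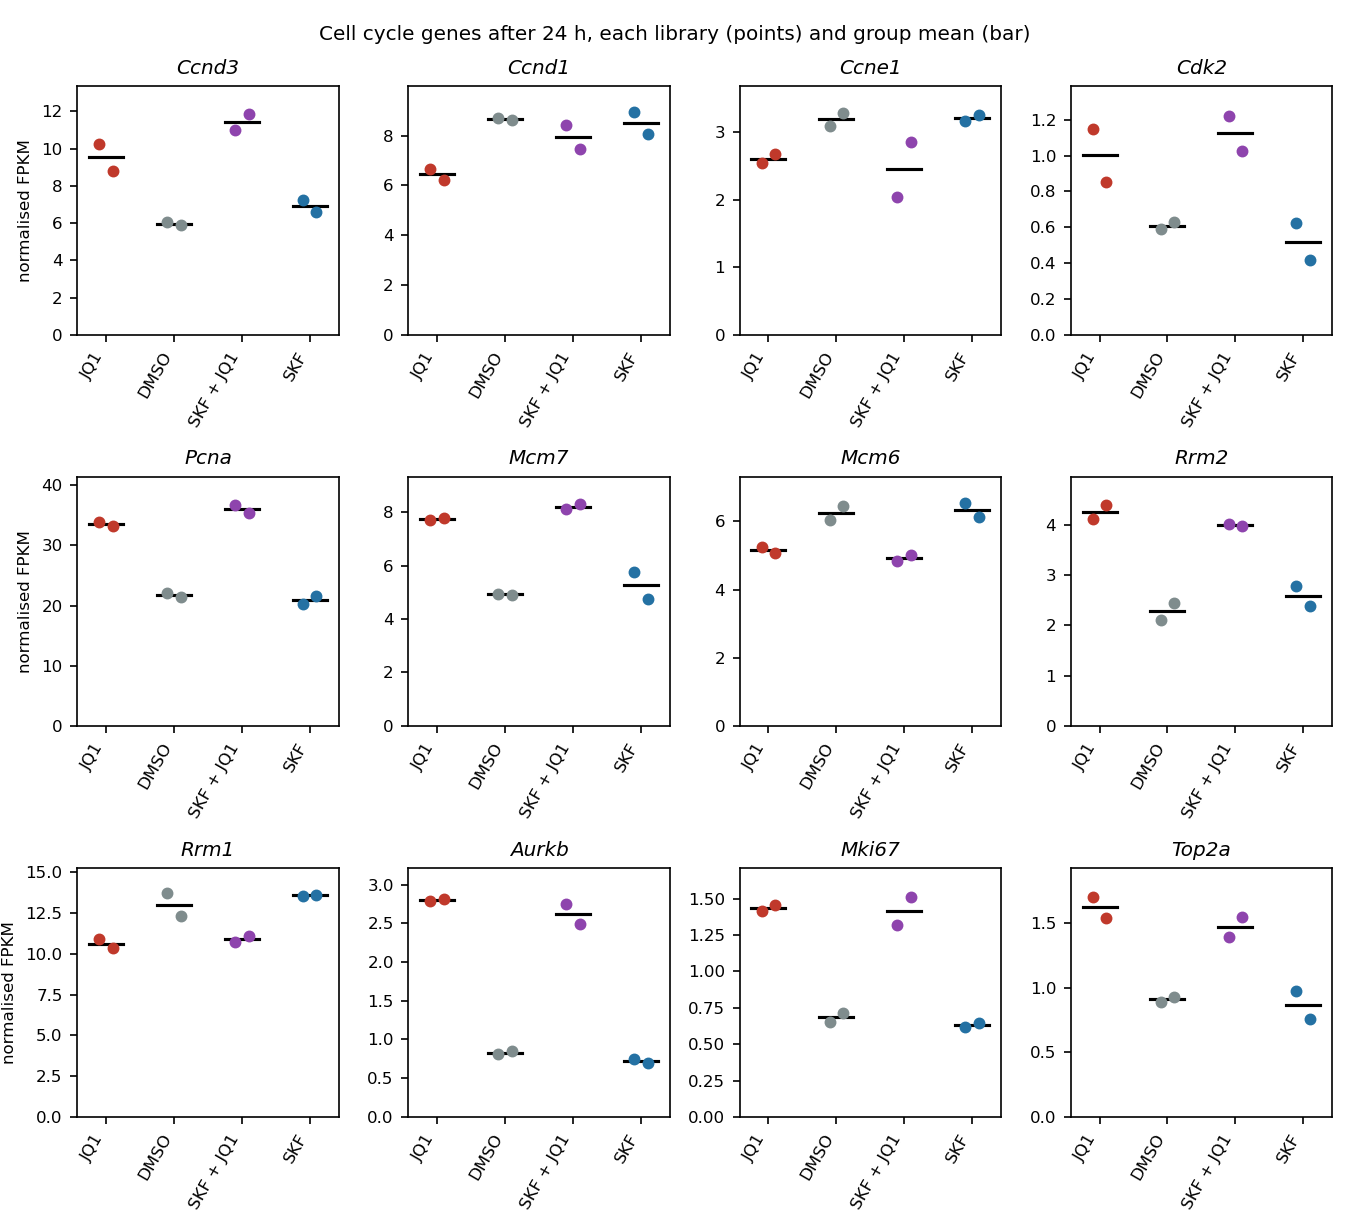
Normalised FPKM (linear vertical axes, starting at 0) of 12 members at 24 h, with 1 point per library, a bar at the mean of the 2 libraries, and groups in the order JQ1, DMSO, SKF plus JQ1, SKF. Aurkb was at 2.49 to 2.82 in the 4 JQ1 libraries and at 0.694 to 0.850 in the others, while Mcm6 and Rrm1 were lower with JQ1.

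Of 10 tested genes of DNA replication and nucleotide supply, JQ1 at 24 h raised 5 and lowered 2, and with SKF it raised 6 and lowered 2. The shares of all genes were 28.1% higher and 28.6% lower without SKF, and 27.7% and 28.7% with SKF. Pcna, the sliding clamp of the replicative polymerases (chromosome 3, 124880698 to 124884570), had 33.9 and 33.1 normalised FPKM in JQ1 libraries, against 22.04 and 21.4 in DMSO libraries. It had 36.8 and 35.3 in SKF plus JQ1 libraries, against 20.2 and 21.5 in SKF libraries. The 4 JQ1 libraries stood well above the other 4, and Pcna rose by 0.61 ± 0.05 and 0.77 ± 0.05 on the log2 scale (limma, adjusted p = 8e-08 and 5.2e-09), the smallest adjusted p among the members in each comparison.

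The subunits of the Mcm helicase, which unwinds DNA at the fork, did not move together. Mcm7 (chromosome 12, 19306607 to 19314016) had 7.70 and 7.77 normalised FPKM in JQ1 libraries, against 4.94 and 4.91 in DMSO libraries. It had 8.13 and 8.30 in SKF plus JQ1 libraries, against 5.77 and 4.77 in SKF libraries. Mcm7 thus rose by 0.60 ± 0.08 without and with SKF (adjusted p = 9.1e-06 in each), with no overlap of libraries. The gene also holds Mir93, Mir25 and Mir106b, whose primary RNA the tables may not separate from Mcm7. Mcm6 (chromosome 13, 45042882 to 45068077) had 5.24 and 5.07 normalised FPKM in JQ1 libraries, against 6.05 and 6.45 in DMSO libraries. It had 4.83 and 5.01 in SKF plus JQ1 libraries, against 6.56 and 6.13 in SKF libraries. All 4 JQ1 libraries lay below all 4 others, and Mcm6 fell by 0.25 ± 0.07 and 0.34 ± 0.07 (adjusted p = 0.0037 and 0.00039). Mcm4 rose by 0.32 ± 0.06 without SKF and 0.22 ± 0.06 with SKF (adjusted p = 0.00027 and 0.0062), and the value with SKF was 0.19 (adjusted p = 0.053) without SKF plus JQ1 replicate 5. Mcm3 rose by 0.34 and 0.39 (adjusted p = 0.03 and 0.015), but its call without SKF was lost when any 1 of the 4 libraries was left out, at 0.30 to 0.38 (adjusted p = 0.06 to 0.13). Its call with SKF was lost without SKF replicate 5, at 0.29 (adjusted p = 0.14), or SKF plus JQ1 replicate 5, at 0.31 (adjusted p = 0.12). Mcm2 (chromosome 4, 120825699 to 120840111) had 1.67 and 1.45 normalised FPKM in JQ1 libraries, against 1.33 and 1.21 in DMSO libraries, a log2 change of 0.21 that did not pass (adjusted p = 0.13). It had 2.04 and 1.67 in SKF plus JQ1 libraries, against 1.44 and 1.42 in SKF libraries, a log2 change of 0.29 (adjusted p = 0.045). On the deposited scale this change was 0.23 (adjusted p = 0.13). The Mcm2 call with SKF was lost without SKF plus JQ1 replicate 5, at 0.17 (adjusted p = 0.33), without SKF replicate 5 or 6, at 0.29 and 0.28 (adjusted p = 0.12 and 0.13), and under 7 other omissions at adjusted p up to 0.054. Mcm5 had log2 changes of 0.05 and 0.07 (adjusted p = 0.75 and 0.65).

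Ribonucleotide reductase, which supplies deoxyribonucleotides, split into its subunits. Rrm2, the small subunit, whose level follows S phase (chromosome 6, 43884678 to 43889515), had 4.11 and 4.38 normalised FPKM in JQ1 libraries, against 2.10 and 2.44 in DMSO libraries. It had 4.01 and 3.98 in SKF plus JQ1 libraries, against 2.78 and 2.38 in SKF libraries. The libraries did not overlap, and Rrm2 rose by 0.78 ± 0.14 and 0.55 ± 0.14 (adjusted p = 0.00014 and 0.0028). Rrm1, the large subunit (chromosome 1, 167538263 to 167562688), had 10.9 and 10.4 normalised FPKM in JQ1 libraries, against 13.7 and 12.3 in DMSO libraries. It had 10.7 and 11.1 in SKF plus JQ1 libraries, against 13.6 and 13.6 in SKF libraries. All JQ1 libraries lay below the others, and Rrm1 fell by 0.28 ± 0.07 and 0.30 ± 0.07 (adjusted p = 0.0017 and 0.00079). Tyms had log2 changes of 0.18 and 0.09 and passed in neither comparison (adjusted p = 0.1 and 0.41).

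Among 10 tested mitotic kinases, cyclins and their controls, JQ1 at 24 h raised 5 without SKF and 6 with SKF, and lowered none. Over all genes, 28.1% were higher and 28.6% lower without SKF, and 27.7% and 28.7% with SKF. Aurkb, the Aurora kinase of the chromosomal passenger complex (chromosome 10, 55626741 to 55634991), had 2.79 and 2.82 normalised FPKM in JQ1 libraries, against 0.808 and 0.850 in DMSO libraries. It had 2.74 and 2.49 in SKF plus JQ1 libraries, against 0.742 and 0.694 in SKF libraries. The gap between these groups was far wider than the spread within them, and Aurkb rose by 1.31 ± 0.13 and 1.35 ± 0.13 on the log2 scale (limma, adjusted p = 3.1e-07 and 2.1e-07), the widest changes among the members. Both annotated transcripts had higher values in JQ1 libraries. The shorter one, of 1811 bases, had 1.04 and 1.21 deposited FPKM in JQ1 libraries, against 0.364 and 0.557 in DMSO libraries. The longer one, of 4244 bases, had 1.61 and 1.45 in JQ1 libraries, against 0.471 and 0.285 in DMSO libraries, so neither overlapped its reference. The split of a gene between transcripts is uncertain at such levels. For example, a Cdk1 transcript had 0.990 deposited FPKM in DMSO replicate 5 at 24 h and 0 in replicate 6.

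Ccna2, the cyclin of S phase and early mitosis, had 2.19 and 2.28 normalised FPKM in JQ1 libraries, against 1.13 and 1.33 in DMSO libraries. It had 2.38 and 2.003 in SKF plus JQ1 libraries, against 1.17 and 1.07 in SKF libraries. The libraries did not overlap, and Ccna2 rose by 0.66 ± 0.14 and 0.73 ± 0.14 (adjusted p = 7e-04 and 0.00029), with the limit that it overlaps Exosc9 on the map. Bub1, a kinase of the spindle checkpoint, rose by 0.54 ± 0.12 in each comparison (adjusted p = 0.0012 and 0.0013). Cdk1, the kinase that starts mitosis, rose by 0.52 ± 0.13 and 0.43 ± 0.13 (adjusted p = 0.0027 and 0.01). Its call with SKF was lost without SKF replicate 5, at 0.36 (adjusted p = 0.078), or SKF plus JQ1 replicate 6, at 0.38 (adjusted p = 0.068). Aurka, the Aurora kinase of the spindle poles, rose by 0.34 and 0.39 (adjusted p = 0.012 and 0.0052), and this was 0.33 (adjusted p = 0.055) without DMSO replicate 6 and 0.22 (adjusted p = 0.17) without JQ1 replicate 5. With SKF the Aurka change was 0.27 (adjusted p = 0.083) without SKF plus JQ1 replicate 6. Birc5 (survivin), a partner of Aurkb, passed with SKF only, at 0.39 (adjusted p = 0.015), and was at 0.37 to 0.40 (adjusted p = 0.05 to 0.07) without SKF replicate 5, SKF plus JQ1 replicate 5 or SKF plus JQ1 replicate 6. Its change without SKF was 0.14, and the difference between these changes did not pass.

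Mcm5 and Tyms passed in neither JQ1 comparison at 24 h, and neither did 4 of the mitotic kinases, cyclins and their controls. Plk1, the Polo kinase, had log2 changes of 0.04 and -0.04, and Ube2c, which supplies ubiquitin to the anaphase-promoting complex, had -0.20 and 0.03. Ccnb1, the mitotic cyclin of Cdk1, had 0.15 and 0.22, and Cdc20, which activates the anaphase-promoting complex, had 0.13 and 0.22. The lowest adjusted p of these 4 genes was 0.12, and the standard error of Ube2c was 0.23, against 0.13 for Cdk1.

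Of 5 tested chromosome and spindle proteins, JQ1 at 24 h raised 3 without SKF and 4 with SKF, and lowered none. Among all genes, 28.1% were higher and 28.6% lower without SKF, and 27.7% and 28.7% with SKF. Mki67, the antigen Ki-67 that coats mitotic chromosomes (chromosome 1, 207993895 to 208020454), had 1.42 and 1.46 normalised FPKM in JQ1 libraries, against 0.650 and 0.717 in DMSO libraries. It had 1.32 and 1.51 in SKF plus JQ1 libraries, against 0.618 and 0.644 in SKF libraries. The groups were far apart, and Mki67 rose by 0.71 ± 0.10 and 0.76 ± 0.10 (limma, adjusted p = 8.4e-06 and 4.1e-06). Top2a, the topoisomerase that untangles sister chromatids (chromosome 10, 86901007 to 86932154), had 1.70 and 1.54 normalised FPKM in JQ1 libraries, against 0.892 and 0.931 in DMSO libraries. It had 1.40 and 1.55 in SKF plus JQ1 libraries, against 0.974 and 0.760 in SKF libraries. The libraries did not overlap either, and Top2a rose by 0.59 ± 0.11 and 0.53 ± 0.11 (adjusted p = 0.00018 and 0.00043). The kinesin Kif11 rose by 0.38 without SKF (adjusted p = 0.0072) and was at 0.22 with SKF (adjusted p = 0.1), or 0.38 (adjusted p = 0.037) with limma voom. Its call without SKF was lost without DMSO replicate 6, at 0.34 (adjusted p = 0.052), or JQ1 replicate 5, at 0.30 (adjusted p = 0.075). Cenpe, the kinesin of the kinetochore, was at 0.23 without SKF (adjusted p = 0.06), or 0.46 (adjusted p = 0.0035) with limma voom, and rose by 0.39 with SKF (adjusted p = 0.0029). Tpx2, which activates Aurka on the spindle, was at 0.09 without SKF and rose by 0.26 with SKF (adjusted p = 0.031), a call lost without SKF replicate 5 or 6 or SKF plus JQ1 replicate 6, at 0.20 to 0.27 (adjusted p = 0.082 to 0.18). Birc5 and Tpx2 overlap genes with no given name. The kinetochore protein Cenpf was below the filter, with 0.477 and 0.475 deposited FPKM in JQ1 libraries, against 0.223 and 0.211 in DMSO libraries (normalised, 0.503 and 0.504, against 0.216 and 0.213). With no filter its log2 change was 0.49 ± 0.08 (adjusted p = 0.00021), while that of the checkpoint kinase Bub1b was 0.18 (adjusted p = 0.14).

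**Figure D2:**
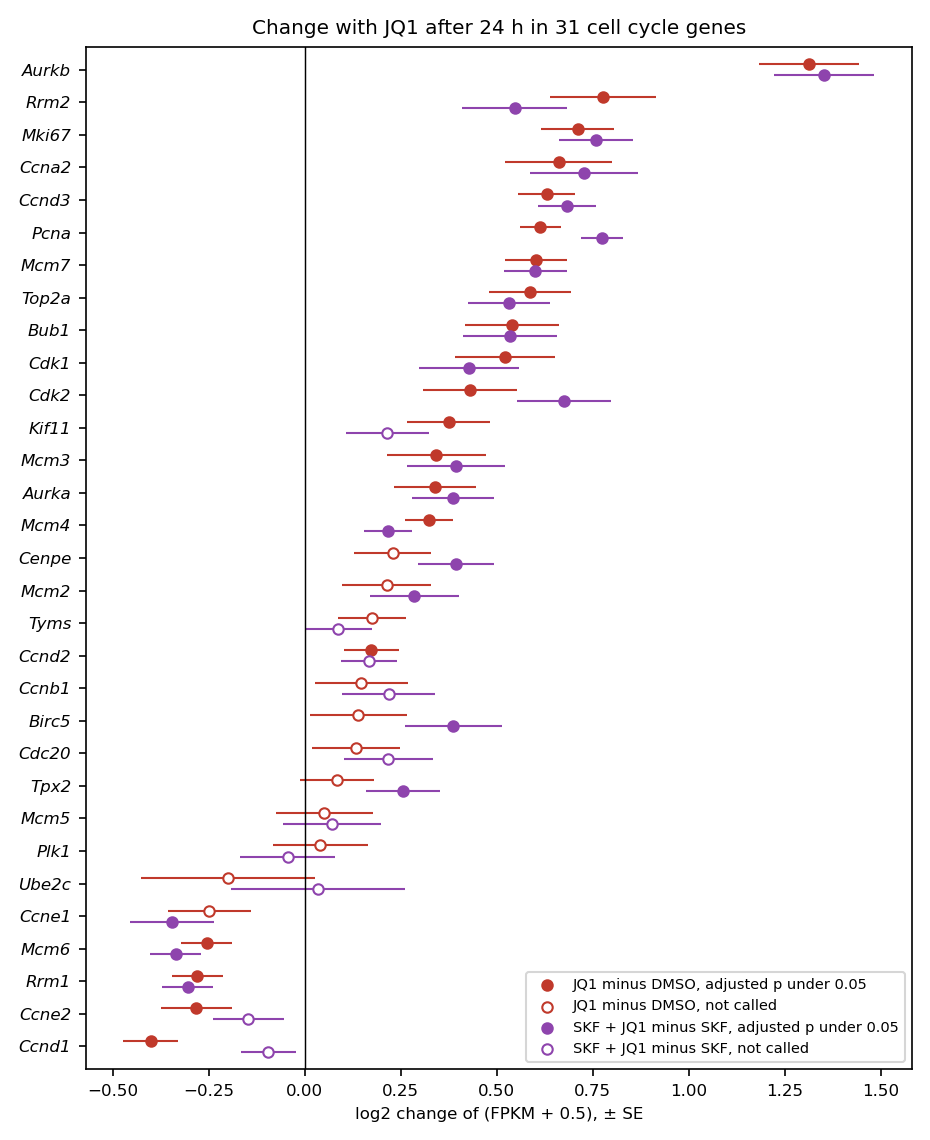
Log2 fold change ± SE (limma) of the 31 tested members at 24 h, JQ1 minus DMSO and SKF plus JQ1 minus SKF, with filled points for an adjusted p under 0.05. Aurkb lies farthest right at 1.31 and 1.35, and Ccnd1 lies farthest left without SKF at -0.40 but near 0 with SKF.

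Markers of other cells moved in these comparisons as well. All 10 microglia markers fell with JQ1 at 24 h, and their summed level was 10.8 to 14.5 normalised FPKM in JQ1 libraries, against 66.3 to 79.9 in DMSO libraries. With SKF it was 1.98 to 3.28 in SKF plus JQ1 libraries, against 29.5 to 40.3 in SKF libraries. Of 12 progenitor markers, JQ1 raised 6 and lowered 1, with sums of 371 to 439 in JQ1 libraries, against 280 to 315 in DMSO libraries, and 425 to 543 in SKF plus JQ1 libraries, against 281 to 289 in SKF libraries. Of 9 tested astrocyte markers, JQ1 lowered 4 and raised none, with sums of 353 to 415 in JQ1 libraries, against 415 to 498 in DMSO libraries. With SKF it raised 3 and lowered 2 of them, with sums of 391.7 to 518 in SKF plus JQ1 libraries, against 398 to 419 in SKF libraries. Of 8 neuronal markers, JQ1 raised 1 and lowered 3, with sums of 1738 to 1822 in JQ1 libraries, against 1877 to 2075 in DMSO libraries. Mitochondrially encoded genes took 12.9 to 13.3% of transcript signal in JQ1 libraries, against 10.6 to 11.9% in DMSO libraries. The part of these shifts in the members' changes was not tested.

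JQ1 for 60 min changed 2 of the 31 members, Pcna and Ccnd3, which both rose, where 1.86% of all genes rose. Pcna had 28.4 and 28.1 normalised FPKM in JQ1 libraries of experiment 1, against 22.5 and 22.6 in DMSO libraries. It had 40.5 and 39.8 in SKF plus JQ1 libraries, against 26.1 and 29.0 in SKF libraries. Pcna was thus highest in the SKF plus JQ1 libraries, and JQ1 raised it by 0.32 ± 0.05 without SKF and 0.54 ± 0.05 with SKF on the log2 scale (limma, adjusted p = 0.0014 and 4.4e-06). The difference between these changes, 0.22 ± 0.08, did not pass over all genes (adjusted p = 1). Ccnd3 had 8.33 and 8.22 in JQ1 libraries, against 5.94 and 6.13 in DMSO libraries, and 10.9 and 9.84 in SKF plus JQ1 libraries, against 7.66 and 7.28 in SKF libraries. The libraries did not overlap, which held upward for 20.8% of all genes without SKF and 23.4% with SKF, and Ccnd3 rose by 0.43 ± 0.08 without SKF and 0.44 ± 0.08 with SKF (adjusted p = 0.0019 and 0.00091). With SKF present these 2 were again the members called, where 2.74% of all genes rose. The members' median change at 60 min was -0.01 without SKF and -0.02 with SKF, and 3 and 2 members had an unadjusted p under 0.05.

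The other members that rose at 24 h did not pass at 60 min. Mki67 had 0.691 and 0.719 normalised FPKM in JQ1 libraries, against 0.661 and 0.744 in DMSO libraries, and Top2a had 0.801 and 1.04 in JQ1 libraries, against 0.983 and 0.988 in DMSO libraries. Their libraries overlapped, with log2 changes of 0.00 ± 0.10 and -0.07 ± 0.11 (adjusted p = 0.99 and 0.85). Ccnd1 had 7.74 and 8.17 in JQ1 libraries, against 9.21 and 8.87 in DMSO libraries, a log2 change of -0.17 ± 0.07 that did not pass (adjusted p = 0.25). Ccnd2 and Mcm2 had log2 changes of -0.01 and -0.03 (adjusted p = 0.96 in each).

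**Figure D3:**
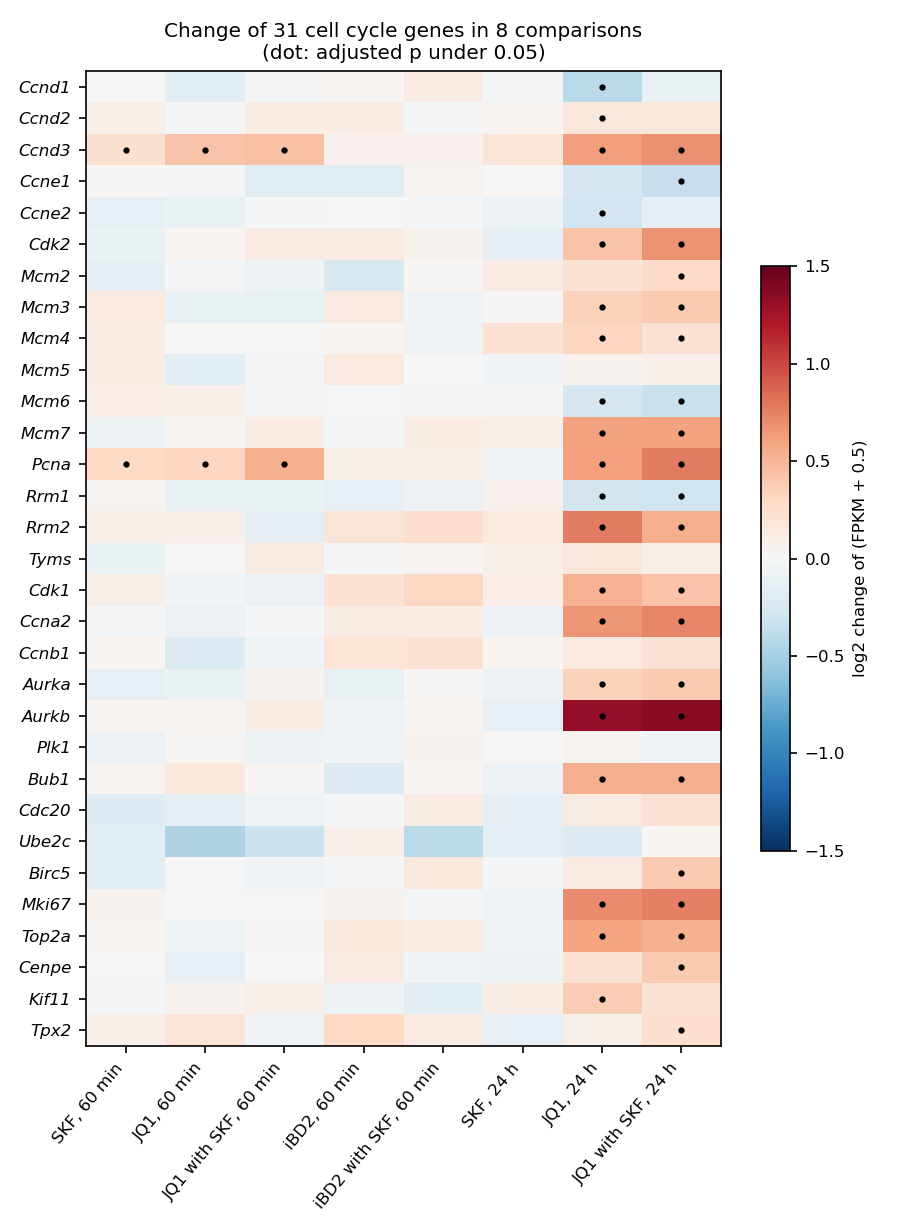
Log2 fold change (colour scale) of the 31 tested members in 8 comparisons, with a dot where the adjusted p is under 0.05. The 2 JQ1 comparisons at 24 h hold 20 and 21 dots, while at 60 min the dots belong to Pcna and Ccnd3 alone and the iBD2 comparisons hold none.

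SKF for 60 min also raised 2 members, Pcna and Ccnd3, where 3.11% of all genes rose over experiments 1 and 2. These tests share libraries with the JQ1 tests above (DMSO and SKF of experiment 1), so they are not separate evidence on those libraries. In experiment 2, Pcna had 28.1 and 29.6 normalised FPKM in SKF libraries, against 24.0 and 22.3 in DMSO libraries, and Ccnd3 had 7.95 and 8.59 in SKF libraries, against 7.19 and 7.20 in DMSO libraries. The SKF libraries were above the DMSO libraries for both genes in both experiments, as they were for 14.9% of all genes in experiment 1 and 24.96% in experiment 2. Pcna rose by 0.30 ± 0.04 on the log2 scale over both experiments (limma, adjusted p = 5.7e-05), by 0.28 in experiment 1 and 0.31 in experiment 2. In the model of all libraries, the SKF comparison of each experiment called 1 member, Pcna, where 1.58% and 2.02% of all genes rose. With experiment 1 fitted alone Pcna was not called, at 0.28 (adjusted p = 0.067). In experiment 1 the call was also lost without DMSO replicate 5, at 0.28 (adjusted p = 0.052), or SKF replicate 6, at 0.21 (adjusted p = 0.19). In experiment 2 it was lost without DMSO replicate 2, at 0.26 (adjusted p = 0.06), or SKF replicate 2, at 0.27 (adjusted p = 0.059). Ccnd3 rose by 0.24 ± 0.05 (adjusted p = 0.014), a change of 0.21 to 0.23 (adjusted p = 0.051 to 0.079) without DMSO replicate 5 or SKF replicate 5 of experiment 1 or SKF replicate 2 of experiment 2. Ccnd1, Ccnd2, Mcm2, Mki67 and Top2a had log2 changes of -0.01, 0.09, -0.14, 0.06 and 0.03 and did not pass.

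After 24 h of SKF no member passed (limma, 2 at an unadjusted p under 0.05, and 1 called by limma voom), where 1.49% of all genes were called. Pcna had a log2 change of -0.06 ± 0.05 and Ccnd3 of 0.20 ± 0.08 (adjusted p = 0.84 and 0.33). The SKF change of Pcna at 24 h was lower than that at 60 min by 0.35 ± 0.07 (adjusted p = 0.0057), the only member called in that difference, where 1.96% of all genes were lower, and the value was -0.31 (adjusted p = 0.052) without SKF replicate 5 at 24 h. Microglia markers were lower in SKF libraries at 24 h, with 7 of 10 called. No interaction of SKF with JQ1 or iBD2 passed for any member (limma and limma voom, with 1 member at an unadjusted p under 0.05 for JQ1 at each time and 0 for iBD2), where 0.00714%, 0.0143% and 0.0429% of all genes were called for JQ1 at 60 min, iBD2 at 60 min and JQ1 at 24 h.

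**Figure D4:**
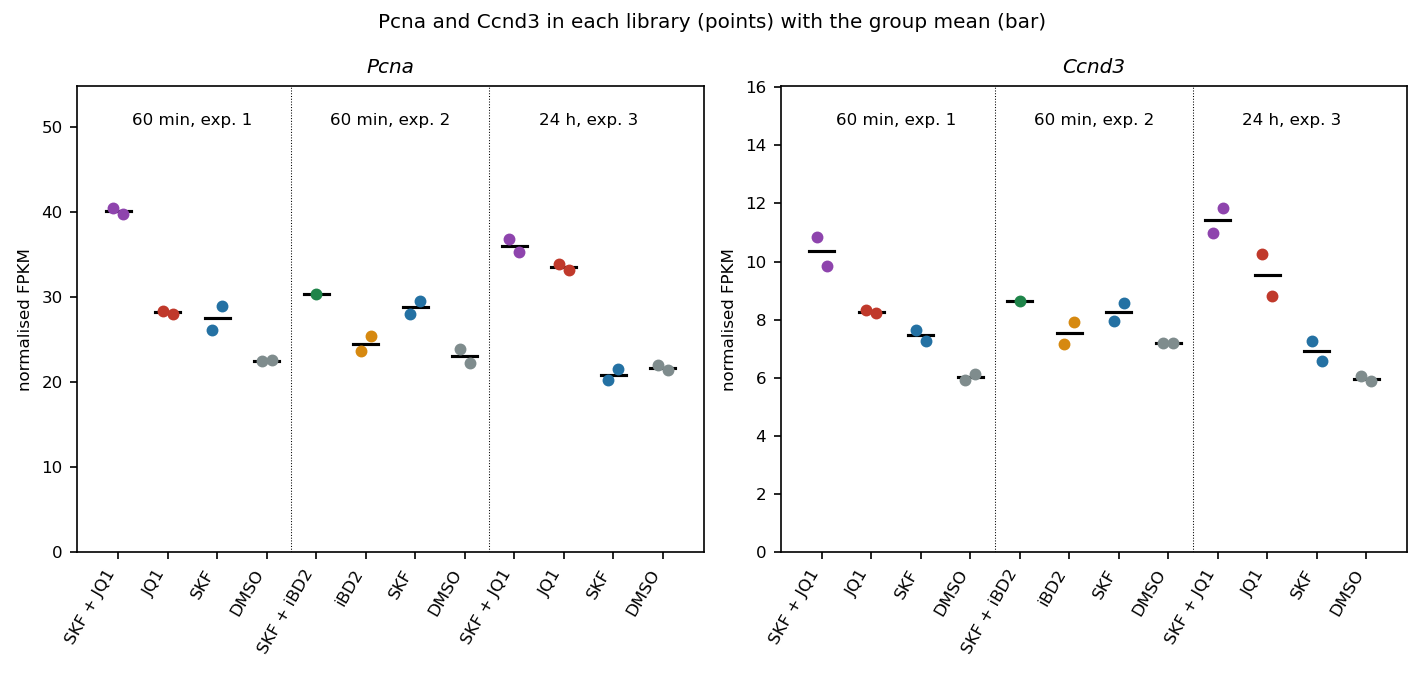
Normalised FPKM of Pcna and Ccnd3 in all 12 groups (linear vertical axes from 0), 1 point per library with a bar at the group mean, and 4 groups per experiment with the combined treatment at the left and DMSO at the right. In experiment 1 the SKF plus JQ1 libraries reach 40.5 and 39.8 for Pcna, above the 22.5 and 22.6 of the DMSO libraries.

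iBD2 for 60 min called no member, alone (limma, 1 at an unadjusted p under 0.05) or with SKF (0 at an unadjusted p under 0.05), and limma voom called none either, where 0.171% and 0.0214% of all genes were called. Pcna had 23.7 and 25.4 normalised FPKM in iBD2 libraries, against 24.0 and 22.3 in DMSO libraries, and 30.4 in the SKF plus iBD2 library, against 28.1 and 29.6 in SKF libraries. Ccnd3 had 7.15 and 7.92 in iBD2 libraries, against 7.19 and 7.20 in DMSO libraries, and 8.63 in the SKF plus iBD2 library, against 7.95 and 8.59 in SKF libraries. The iBD2 and DMSO libraries overlapped for both genes. The log2 change with iBD2 had a 95% interval of -0.03 to 0.20 for Pcna and -0.10 to 0.22 for Ccnd3. JQ1 and iBD2 were given at 60 min in different experiments and at doses the labels do not give, so their changes stand side by side. The change with JQ1 minus the change with iBD2, each against its own DMSO libraries, was 0.24 ± 0.08 for Pcna (95% interval 0.07 to 0.40) and 0.37 ± 0.11 for Ccnd3 (0.14 to 0.59), and neither passed over all genes (adjusted p = 0.24 and 0.15, where 0.907% of genes were called).

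The JQ1 changes at 24 h and at 60 min, each against the DMSO libraries of its own experiment, differed for 11 of the 31 members, 10 higher and 1 lower at 24 h, where 17% of all genes were higher and 19.7% lower. Aurkb, Mki67, Mcm7 and Top2a had differences of 1.27 ± 0.18, 0.71 ± 0.13, 0.58 ± 0.12 and 0.65 ± 0.15 on the log2 scale (limma, adjusted p = 6e-05, 0.00069, 0.00096 and 0.0029). In experiment 1 Aurkb had 0.897 and 1.04 normalised FPKM in JQ1 libraries, against 0.713 and 1.17 in DMSO libraries, and Mcm7 had 4.53 and 5.01 in JQ1 libraries, against 4.38 and 4.99 in DMSO libraries. Both genes overlapped there, unlike at 24 h. Ccna2 had 1.07 and 0.936 in JQ1 libraries, against 1.13 and 1.06 in DMSO libraries. Mcm6, the member with a lower change at 24 h (-0.33 ± 0.09, adjusted p = 0.011), had 6.51 and 6.02 in JQ1 libraries of experiment 1, against 5.63 and 6.19 in DMSO libraries. Its call was lost without DMSO replicate 5 or JQ1 replicate 5 of experiment 1, at -0.27 and -0.28 (adjusted p = 0.052 and 0.055). Pcna was raised at each time, and more so at 24 h by 0.30 ± 0.08 (adjusted p = 0.0066). Ccnd3, raised at each time, did not differ past the threshold, except without JQ1 replicate 6 at 24 h (0.31, adjusted p = 0.042).

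**Figure D5:**
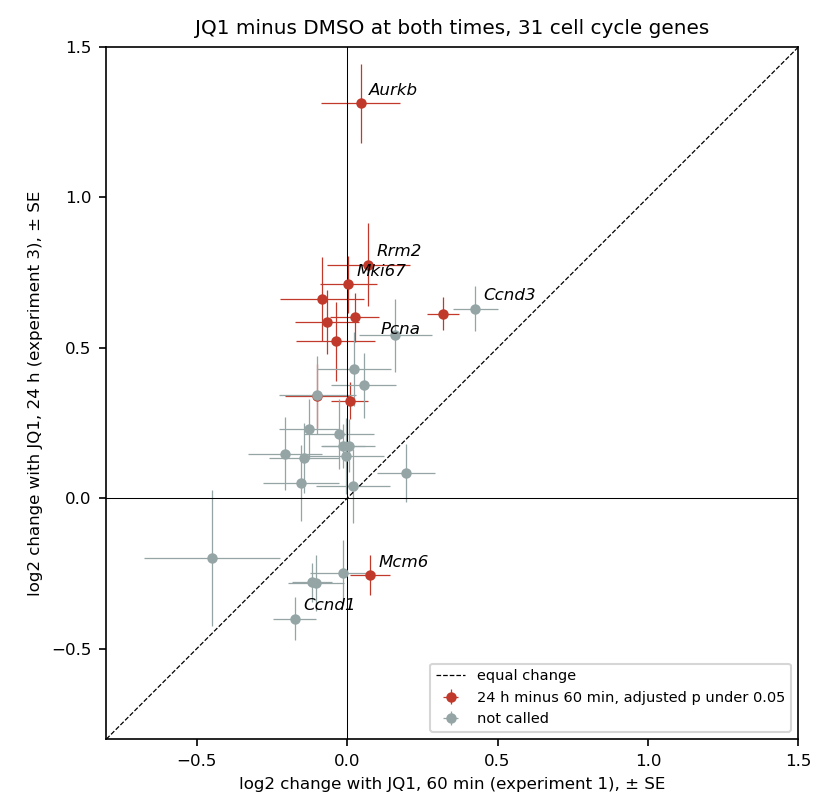
Log2 fold change ± SE of the 31 tested members with JQ1, at 60 min in experiment 1 (horizontal) and at 24 h in experiment 3 (vertical), with the dashed line at equal change and members whose difference was called in red. Aurkb and Mki67 lie far above the line, near 0 at 60 min, while Pcna and Ccnd3 lie to the right of 0.

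Other genes of the same pathways, from lists that hold none of the members, were called as follows with JQ1 at 24 h, beside the 28.1% of all genes higher and 28.6% lower without SKF, and 27.7% and 28.7% with SKF. Of 41 tested replication genes of 50 listed, 23 were higher and 3 lower without SKF, and 21 and 3 with SKF. Gmnn (geminin), which keeps origins from firing again, had 2.11 and 1.91 normalised FPKM in JQ1 libraries, against 0.629 and 0.774 in DMSO libraries, and rose by 1.06 without and 0.92 with SKF. Chaf1b, a subunit of the chromatin assembly factor that follows the fork, had 2.35 and 2.09 in JQ1 libraries, against 0.824 and 0.762 in DMSO libraries, and rose by 1.07 and 1.36. Neither gene's libraries overlapped. Pold2, a subunit of DNA polymerase delta, rose by 0.80 and 0.77, and the maintenance methyltransferase Dnmt1 rose by 0.45 and 0.50. Rpa2, of the single-strand binding protein, had 0.650 and 0.887 normalised FPKM in JQ1 libraries, against 1.90 and 1.17 in DMSO libraries, and fell by 0.66 without SKF (adjusted p = 0.0014). It had 1.26 and 1.01 in SKF plus JQ1 libraries, against 1.17 and 1.37 in SKF libraries, which overlap, and did not pass. Dut, which removes dUTP, fell by 0.36 and 0.32.

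Of 48 tested mitosis genes of 55 listed, 21 were higher and 7 lower without SKF, and 23 and 6 with SKF. Fam83d, a spindle protein, had 1.80 and 1.53 normalised FPKM in JQ1 libraries, against 0.428 and 0.678 in DMSO libraries, and rose by 1.05 and 0.91. Aspm, of the spindle poles, rose by 0.66 and 0.77, and the checkpoint kinase Ttk rose by 0.67 and 0.51. Cdc25b, a phosphatase that activates Cdk1, had 1.40 and 1.38 in JQ1 libraries, against 2.59 and 2.56 in DMSO libraries, and fell by 0.70 and 0.84. Aurkc, the third Aurora kinase, fell by 0.51 and 0.37, so Aurkb and Aurkc went opposite ways.

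Of 33 tested brakes and regulators of entry of 40 listed, 9 were higher and 7 lower without SKF, and 9 and 6 with SKF, shares near or below those of all genes. E2f5, a repressor E2F, had 9.94 and 10.7 normalised FPKM in JQ1 libraries, against 4.41 and 4.90 in DMSO libraries, and rose by 1.07 and 1.01. The Cdk4 and Cdk6 inhibitor Cdkn2c rose by 0.55 and 0.66, and the retinoblastoma gene Rb1 rose by 0.28 and 0.33. Cdkn1a (p21), an inhibitor of Cdk2, had 19.9 and 16.4 in JQ1 libraries, against 37.3 and 30.5 in DMSO libraries, and fell by 0.88 and 0.60. Wee1, the kinase that holds Cdk1 inactive, had 1.05 and 1.14 in JQ1 libraries, against 2.11 and 2.29 in DMSO libraries, and fell by 0.76 and 0.56. Cdc25a, the phosphatase that activates Cdk2, had 1.14 and 1.13 in JQ1 libraries, against 2.60 and 2.35 in DMSO libraries, and fell by 0.86 and 0.85. For these 4 genes the JQ1 and DMSO libraries stood apart. The median log2 changes without and with SKF were 0.26 and 0.27 for the replication list, 0.22 and 0.25 for the mitosis list and 0.09 and 0.11 for the brakes, against 0.01 and 0.00 over all genes.

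At 60 min, JQ1 raised 1 and lowered 1 of the 33 brakes, raised 1 and lowered 0 of the mitosis list and raised 1 and lowered 1 of the replication list, where 261 of 13999 genes were higher and 355 lower. With SKF present, JQ1 raised 3 and lowered 2 of the brakes (10 at an unadjusted p under 0.05), and raised 1 of each other list, where 383 genes were higher and 533 lower. SKF itself raised 4 of the 33 brakes, where 3.11% of all genes rose, 0 of the mitosis list (3 at an unadjusted p under 0.05) and 0 of the replication list (2 at an unadjusted p under 0.05). Btg2, an antiproliferative gene induced by activity, had 17.3 and 27.4 normalised FPKM in SKF libraries of experiment 1, against 3.34 and 3.27 in DMSO libraries, and 34.6 and 33.1 in SKF libraries of experiment 2, against 3.36 and 3.06 in DMSO libraries. It rose by 2.88 ± 0.10 over both experiments, far beyond the spread of its libraries (limma, adjusted p = 9.7e-12). Tob1, of the same family, had 32.3 and 33.7 in JQ1 libraries of experiment 1, against 18.7 and 22.3 in DMSO libraries, and rose by 0.68 with JQ1 and by 0.50 with SKF (adjusted p = 1.8e-06 and 5.4e-07). With JQ1, Cdc25a was already lower at 60 min, by 0.37 (adjusted p = 0.025), and Fam83d was already higher, by 0.46 (adjusted p = 0.026).

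The experiments themselves differed in the members' levels. The 7 libraries of experiment 2 were set against 12 libraries, the 8 of experiment 1 and the DMSO and SKF libraries of experiment 3. All of the 7 lay below all of the 12 for 10 of the 31 members (Cdk1, Aurkb, Tpx2, Ube2c, Ccna2, Plk1, Ccnd1, Mki67, Top2a and Rrm2), where 15.2% of all genes did so, and above them for 1, Mcm6, where 14.7% did so. Mki67 was at 0.252, 0.290 and 0.336 normalised FPKM (lowest, median and highest) in experiment 2, against 0.618, 0.676 and 0.786 in the other libraries. Cdk1 was at 0.202, 0.312 and 0.433, against 0.773, 0.947 and 1.27, and Top2a was at 0.210, 0.297 and 0.373, against 0.760, 0.978 and 1.05. Ccnd1 differed less, at 5.69, 6.05 and 6.44, against 7.74, 8.67 and 9.38. Beside this, the summed astrocyte markers were at 137 to 151 in experiment 2, against 358 to 498 in the others, and the progenitor markers at 157 to 189, against 273 to 350. The oligodendrocyte sums were at 36.1 to 38.7, against 51.7 to 61.9, and those of fibroblasts and mural cells at 1.79 to 3.21, against 4.03 to 7.53. Mitochondrially encoded genes took 6.57 to 7.38% of transcript signal in experiment 2, against 9.91 to 12.2% in the others. The microglia sums overlapped, at 36.4 to 47.1 in experiment 2, against 29.5 to 85.6. The sums of striatal projection neuron markers went the other way, at 1184 to 1287 in experiment 2, against 952 to 1172 in the others. The part of these markers and shares in the members' levels was not tested, and no test was made between experiments, which differ in more than treatment.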

How the data were processed

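Each deposited table is a StringTie transcript table, and the authors computed its FPKM and its coverage (mean reads per base), per the file headers. Trim Galore, FastQC, STAR, StringTie and DESeq2 and the build Rnor_6.0 are named, per the submitters' processing notes, with no versions. No source states how strand was handled. The second SKF plus iBD2 sample is not analysed here.

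FPKM were summed by gene, divided by median-ratio size factors (0.943 to 1.06) and tested as log2(value + 0.5) by limma 3.58.1 (R 4.3.3) with its trend and robust settings. Genes needed 0.5 FPKM or more, as deposited, in 2 or more libraries and a transcript of at least 200 bases, which left 13999 genes. The model held 12 group means and 11 residual degrees of freedom over 23 libraries. The lone SKF plus iBD2 library was assumed to vary like the others. All 16 comparisons are two-sided contrasts, with Benjamini-Hochberg adjustment over the genes tested and calls at 0.05. An interaction is the change with SKF in the presence of an inhibitor minus that without it. Estimated reads are coverage times length divided by the read length of 101 bases. Since FPKM are not read counts, count models were not used as the main test.

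The members and gene lists were chosen with earlier results of these data known. Values in every library are given for up to 6 called members per direction and comparison, by smallest p, and for Mki67, Top2a, Ccnd1, Ccnd2, Mcm2 and Pcna. Other members, and up to 4 genes per direction of each pathway list, are given in less detail. Cenpf, Bub1, Cdk1 and further members named outside this rule were chosen after their values were seen. Alternatives were the deposited scale, pseudocounts of 0.1 and 1, no filter and a stricter one, voom on estimated reads, each experiment alone, a replicate block, and leaving out each library. The script was tested on simulated data with known changes.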

Additional observations from a re-analysis of the deposited data

Results flagged for a closer look

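The change with JQ1 at 24 h differed from that at 60 min for 11 members, by a test of the difference itself (limma, Benjamini-Hochberg adjusted p over all genes tested, log2 ± SE, 24 h minus 60 min, each against DMSO of its own experiment). The differences were 1.27 ± 0.18 for Aurkb (adjusted p = 6e-05), 0.71 ± 0.13 for Mki67 (0.00069), 0.58 ± 0.12 for Mcm7 (0.00096) and 0.65 ± 0.15 for Top2a (0.0029). They were 0.30 ± 0.08 for Pcna (0.0066), 0.74 ± 0.20 for Ccna2 (0.0075), 0.32 ± 0.09 for Mcm4 (0.0095) and 0.71 ± 0.19 for Rrm2 (0.0096). Mcm6 had a difference of -0.33 ± 0.09 (0.011), Cdk1 of 0.56 ± 0.18 (0.025) and Aurka of 0.44 ± 0.15 (0.03). The Cdk1 difference was 0.43 to 0.50 (adjusted p = 0.083 to 0.12) without DMSO replicate 6 or JQ1 replicate 6 of experiment 1, or DMSO replicate 6 or JQ1 replicate 5 of experiment 3. The Aurka difference was 0.32 to 0.45 (adjusted p = 0.058 to 0.15) without DMSO replicate 5 or JQ1 replicate 5 of experiment 1, or either DMSO library or JQ1 replicate 5 of experiment 3. That of Mcm6 was -0.27 and -0.28 (adjusted p = 0.052 and 0.055) without DMSO replicate 5 or JQ1 replicate 5 of experiment 1.

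The change with SKF at 24 h differed from that at 60 min for Pcna, at -0.35 ± 0.07 (adjusted p = 0.0057), and at -0.31 (adjusted p = 0.052) without SKF replicate 5 of experiment 3. In all of these, time and experiment cannot be told apart.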

How the results depend on the processing

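Of 61 member changes called in the comparisons, 40 stayed past the threshold in every setting tried, and none of 12170 values of a member under an alternative reversed a called direction, while 92 were no longer past the threshold and 24 came past it. SKF at 60 min called 1 member in place of 2 on the deposited FPKM scale, SKF at 60 min in experiment 1 called 0 in place of 1 with that experiment fitted alone, and SKF at 24 h called 1 in place of 0 with limma voom (Mcm4, 0.24, adjusted p = 0.046). The cause was not tested. On the deposited scale JQ1 at 24 h called 13 higher and 5 lower, a share of higher calls of 72.2% against 80%, where the median of all genes was -0.08, and 15 higher and 3 lower with SKF. Upward calls lost on that scale without SKF were Ccnd2 (0.08, adjusted p = 0.47), Aurka (0.27, 0.051) and Mcm3 (0.29, 0.075). With SKF they were Mcm2 (0.23, adjusted p = 0.13), Tpx2 (0.20, 0.099) and Mcm4 (0.15, 0.054). Leaving out 1 library gave 15 to 20 members for JQ1 at 24 h, 16 to 22 with SKF, 9 to 13 for JQ1 at 24 h minus 60 min, 0 to 1 for SKF at 24 h minus 60 min, 1 to 2 for SKF at 60 min, 0 to 2 for it in experiment 1 and 0 to 1 in experiment 2. JQ1 at 60 min stayed at 2 to 2 without and with SKF, and SKF at 24 h, iBD2, the interactions and JQ1 minus iBD2 stayed at 0 to 0. Leaving out the lone SKF plus iBD2 library gave no value for its 2 comparisons. The main model did not pair libraries by replicate number. Deviations of same-numbered libraries correlated at -0.27 to 0.37 within experiments, and whether these libraries share a culture was not tested. With the replicate block JQ1 at 24 h called 20 members, 22 with SKF, and every other comparison kept its count. Cdc20, Ube2c and Birc5 rest on few estimated reads per library (14.6 to 122, 13.4 to 157 and 22.5 to 86.4), which limits what could be detected.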
